A study of Arabidopsis thaliana with 12 samples.

Results

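The comparison is between Arabidopsis thaliana seedlings lit for 2 h in 400 µM Rose Bengal and seedlings lit in the same way without the dye, both at a light level of 30 µE. Its members are 6 RNA libraries out of the 12 in the series, the 3 of RB 400 µM and the 3 of RB 0 µM, and all 13307 genes in the table were tested. They were chosen by the dose in the sample labels. Every library came from whole wild-type Col-0 seedlings, 2 weeks old, that had been equilibrated in water before they were moved to the wells, so the untreated seedlings share the transfer and the light. The labels name Rose Bengal (RB) as the treatment, whereas the herbicide DCMU stands beside this series in the study's data list, and the labels were followed here. Whole seedlings mix leaf, stem and root, and in such samples fewer cells of a type and less RNA per cell cannot be told apart. In the methods of the study, RNA came from 3 biological replicates for each treatment, each a pool of whole seedlings; whether the 3 libraries of a dose were grown or lit apart is not given in the sources used here, so that p-values measure the spread between these pools.

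RB is a photosensitizer, a dye that passes the energy of absorbed light to oxygen and so makes singlet oxygen, a short-lived and highly reactive form. In leaves singlet oxygen forms mainly at lit chlorophyll, where it oxidizes lipids, proteins and nucleic acids and sets off changes in nuclear gene expression. Oxidized and unfolded proteins are met by chaperones, small reactive compounds by conjugating enzymes and exporters, and wounding or attack by calcium, kinase and jasmonate signalling. The genes of these systems are the ones followed here.

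The 6 libraries were made by MARS-seq, a method that sequences polyadenylated RNA at its 3′ end, and held 2002066 to 2999463 reads. Values are given as CPM, the reads of a gene per 1000000 reads of its library, with library totals scaled by TMM factors (trimmed mean of M values), so that 1 read was worth 0.317 to 0.524 CPM. A log2 fold change compares RB 400 µM with RB 0 µM and comes with its standard error (SE), and a gene was called where edgeR's quasi-likelihood test gave a Benjamini-Hochberg adjusted p under 0.05. Between replicates of a dose the chi-square per gene ran from 3.43 to 4.97, where counting error alone gives about 1. Over all 12 libraries, 1 component of the deviations from the group means held 33.4% of the variance and separated replicate 1 of RB 10 µM, replicate 1 of RB 100 µM and replicate 2 of RB 400 µM from the others of their dose. Without these 3 libraries, 1274 genes were called higher and 981 lower. Values are listed in the order of replicates 1, 2 and 3, untreated before RB 400 µM, and a mean is given with its SD over 3 libraries. PCR duplicates were not removed, and the error covered by a counting interval or a floor is that of counting alone.

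RB at 400 µM raised 1212 of 13307 genes (9.11%) and lowered 856 (6.43%), together 15.5%. Of these, 796 (5.98%) rose and 448 (3.37%) fell by at least 2-fold (9.35% in either direction), and 167 rose and 84 fell by at least 8-fold. At least 16-fold changes were found in 76 genes that rose and 51 that fell. The 3 libraries of each dose did not overlap in 1194 of the 1212 higher and 848 of the 856 lower genes, against 4579 of all 13307 genes (34.4%). The median log2 fold change over all genes was -0.04, and 9 in 10 genes lay between -1.45 and 1.71. Scaled by plain library totals the median was -0.15, and the calls divided into 1030 higher and 1183 lower. With no adjustment for multiple testing, 3513 genes (26.4%) had a p under 0.05. Counts of called genes in the lists below are to be read beside the 9.11% higher and 6.43% lower of all genes.

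**Figure D1:**
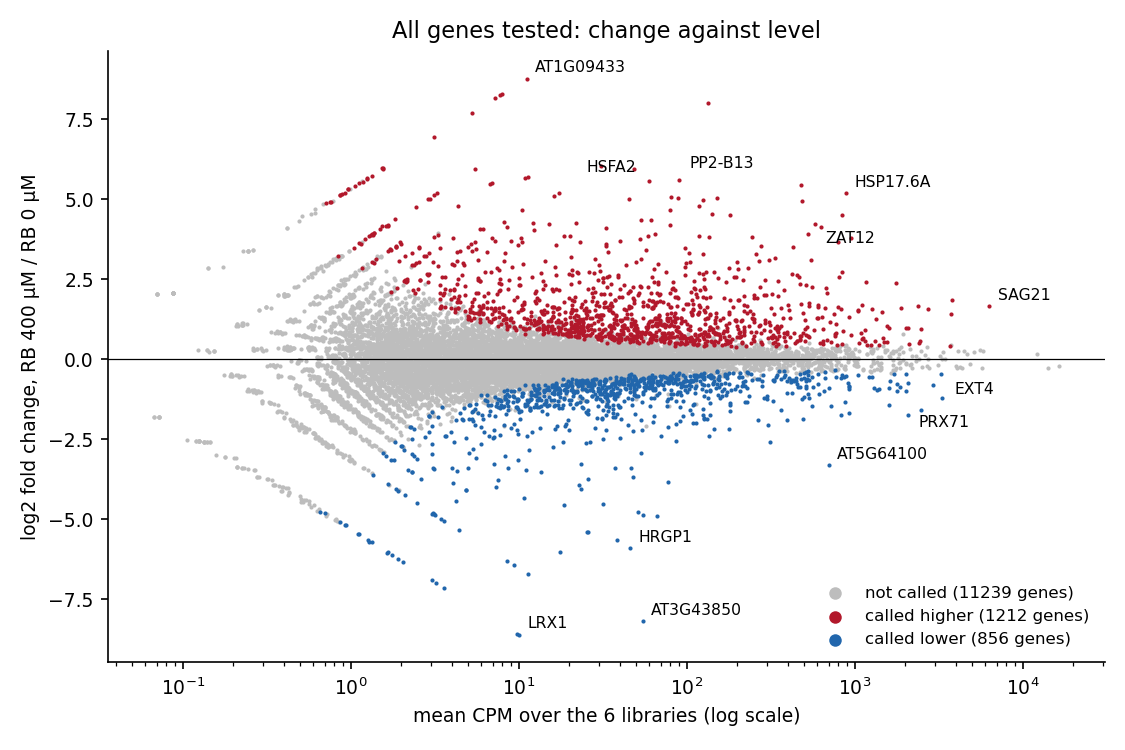
Log2 fold change of each gene in RB 400 µM against RB 0 µM (vertical axis) by its mean level over the 6 libraries in CPM (horizontal axis, log scale), with 1212 genes called higher, 856 called lower and 11239 not called in separate colours. Calls are found at every level, and the small heat shock gene HSP17.6A lies far above, and the extensin HRGP1 far below, the band of genes that were not called.

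Calls were more frequent among strongly expressed genes. Below 10 CPM, 3.71% of 6409 genes were called higher and 2.54% lower. Between 100 and 1000 CPM the shares were 20.6% and 12.5% of 1547 genes, and above 1000 CPM 22.6% and 13.2% of 159 genes. The genes called higher held 11.3, 11.9 and 11.2% of the reads of the untreated libraries and 25.01, 24.2 and 25.5% in RB 400 µM. The genes called lower held 15.02, 15.6 and 16.8% and then 7.76, 7.68 and 7.84%. The share of the seedlings' reads in genes that rose thus lay higher in every RB library than in any untreated library, and the share in genes that fell lay lower; since these genes were chosen by the same contrast, the shares describe its size and are no test.

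**Figure D2:**
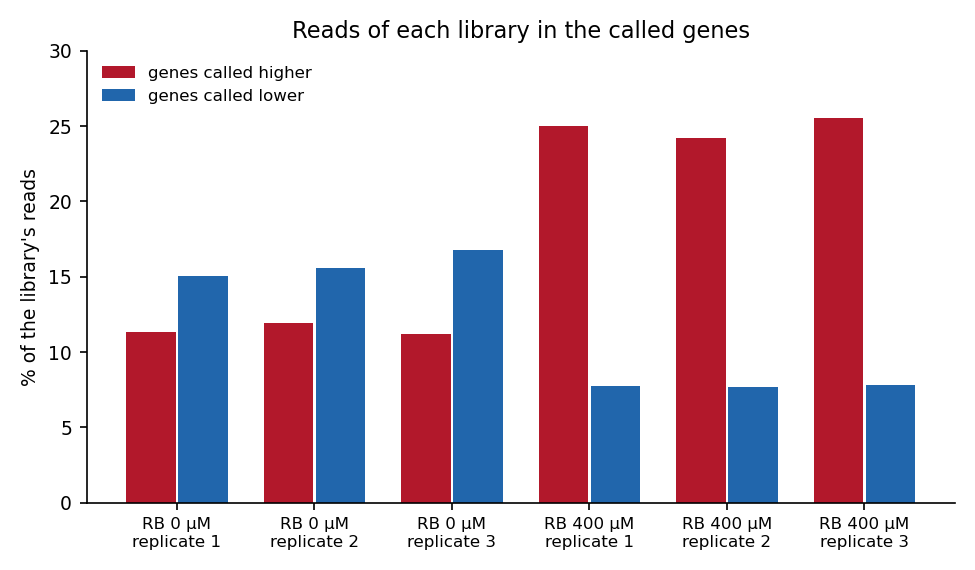
Percent of the reads of each library (vertical axis, from 0) held by the genes called higher and by the genes called lower, with 1 bar per library. The genes called higher held 11.2 to 11.9% of the untreated libraries and 24.2 to 25.5% of the RB 400 µM libraries, and the genes called lower 15.02 to 16.8% and 7.68 to 7.84%.

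Many chaperone genes rose. Of 13 small heat shock proteins of the cytosol, which hold unfolding proteins in a soluble state, 9 rose, with a median log2 fold change of 3.83 (all genes -0.04). Summed over the 13 genes their transcripts went from 449 ± 4.91 to 7699 ± 207 CPM. HSP17.6A, of class II of this family, stood at 44.4, 46.5 and 50.8 CPM without RB and 1661, 1754 and 1775 CPM with it. AT1G53540, a class I member, stood at 21.0, 20.6 and 23.9 CPM in the untreated libraries and 973, 927 and 924 CPM in RB 400 µM. In each of these genes the 3 RB libraries lay far above the untreated ones and close to each other. The changes were 36.6-fold (log2 fold change 5.19, SE 0.19, adjusted p = 2.05e-12) and 43.2-fold (log2 fold change 5.43, SE 0.21, adjusted p = 2.05e-12). HSP17.4 rose from 70.5 ± 8.405 to 1610.0 ± 53.0 CPM (22.8-fold), AT1G07400 12.51-fold, AT2G29500 15.1-fold and HSP18.2 18.4-fold. Members of this family are similar in sequence, and how the counting treated reads that fit more than 1 gene is not given in the sources used here, so that the sum is firmer than single members.

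Chaperones of mitochondria, plastids and the endomembrane system were also raised. HSP23.6-MITO, a mitochondrial small heat shock protein, went from 7.65 ± 1.93 to 243 ± 25.7 CPM, and HSP22.0, of the endoplasmic reticulum, from 2.42 ± 3.12 to 88.1 ± 30.0 CPM. HSP21, the plastid member, had 1 read in the 3 untreated libraries together and 67 in the RB libraries (86.0-fold higher, 95% counting interval 14.9 to 3447). Together 5 of 6 organelle members rose. Of these, AT1G52560 (adjusted p = 0.0462) lost its call without any 1 untreated library, without replicate 3 of RB 400 µM and with a replicate block. ACD32.1, a peroxisomal member, fell 1.51-fold (log2 fold change -0.60, SE 0.16, adjusted p = 0.011), a call that did not survive the removal of replicate 3 of RB 0 µM or of replicate 1 or 3 of RB 400 µM (adjusted p = 0.067, 0.0606 and 0.0776).

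The larger, ATP-driven chaperones followed the same course for the stress-inducible genes. HSP101, the disaggregase that pulls proteins out of aggregates, stood at 29.5, 31.0 and 31.3 CPM without RB and 984, 907 and 925 CPM with it. The 3 RB libraries lay far above the untreated ones and close to each other (30.6-fold; log2 fold change 4.94, SE 0.19, adjusted p = 2.05e-12). Hsp70b, a heat-inducible HSP70, rose 27.6-fold, and HSP70 (AT3G12580), a cytosolic form, rose from 567 ± 60.4 to 2936 ± 203 CPM (5.18-fold). Of 15 HSP70 genes 6 rose, and of 10 HSP100 and HSP90 genes 5 rose and 1 fell. HSP90.1, the inducible cytosolic HSP90, rose 5.50-fold, while HSP90.2 and HSP90.3 rose 2.44-fold and 1.89-fold. The gene that fell was HSP90.7, which encodes the HSP90 of the endoplasmic reticulum (from 553 ± 97.9 to 344 ± 23.5 CPM, 1.61-fold).

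The list of co-chaperones, which deliver clients to HSP70 and HSP90, also held other genes such as MBF1C, and 10 of its 17 genes rose. BAG6, a calmodulin-binding co-chaperone linked to cell death, stood at 6.06, 4.43 and 3.47 CPM in the untreated libraries and 124, 196 and 153 CPM in RB 400 µM (33.4-fold; log2 fold change 5.06, SE 0.41, adjusted p = 2.72e-08). Hop3, which joins HSP70 to HSP90, rose 6.25-fold, and SGT1A 2.86-fold. MBF1C, a transcriptional coactivator of the heat response, rose from 169 ± 9.08 to 852 ± 36.5 CPM (5.02-fold). By contrast, of 10 chaperonins, the barrel-shaped complexes that fold new proteins, 1 was called higher in the fit of all libraries, and none was called higher when replicate 3 of RB 0 µM, or replicate 1 or 3 of RB 400 µM, was left out.

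Of 15 heat shock transcription factors, which switch on chaperone genes through heat shock elements, 5 rose. HSFA2, which extends the heat response, stood at 3.23, 1.90 and 2.171 CPM without RB and 116, 113 and 123.2 CPM with it. A few reads per untreated library thus stood against a level above 100 CPM in every RB library (47.8-fold; log2 fold change 5.58, SE 0.32, adjusted p = 3.47e-10). HSFB1, HSFB2A and HSFB2B, of the class that represses other genes, rose 3.32-fold, 3.24-fold and 3.56-fold. HSFA7B had 2 reads in the untreated libraries and 23 in the RB libraries (14.8-fold higher, 95% counting interval 3.65 to 129).

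The promoters of 3 of these genes show how the binding site of the heat shock factors is laid out. Sequences are of TAIR10.1 from RefSeq, on the strand of the gene, 5′ to 3′, and each ends 1 base before the annotated start of the transcript. The capitals mark a heat shock element, searched on either strand as the 3 blocks GAA, TTC and GAA with any 2 bases between blocks. HSP17.4 (chr3:16984868-16984977, minus strand) holds 2 of them, AT1G53540 (chr1:19980229-19980298, plus strand) 1 and HSFA2 (chr2:11135524-11135623, plus strand) 1.
HSP17.4: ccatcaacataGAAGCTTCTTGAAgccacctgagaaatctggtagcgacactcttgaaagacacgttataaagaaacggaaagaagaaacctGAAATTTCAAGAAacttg
AT1G53540: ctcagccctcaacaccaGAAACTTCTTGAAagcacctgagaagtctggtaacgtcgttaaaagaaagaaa
HSFA2: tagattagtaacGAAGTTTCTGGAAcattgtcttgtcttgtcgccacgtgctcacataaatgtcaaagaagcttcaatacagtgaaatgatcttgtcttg

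The element was found in 2 of 13 windows of the cytosolic small heat shock genes and in 0.6% of the windows of all 13213 tested genes with a promoter in the reference, each window running from 250 bases before to 50 bases after the start. A match is a run of letters and not a measured binding site, and elements with other spacing were not searched.

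**Figure D3:**
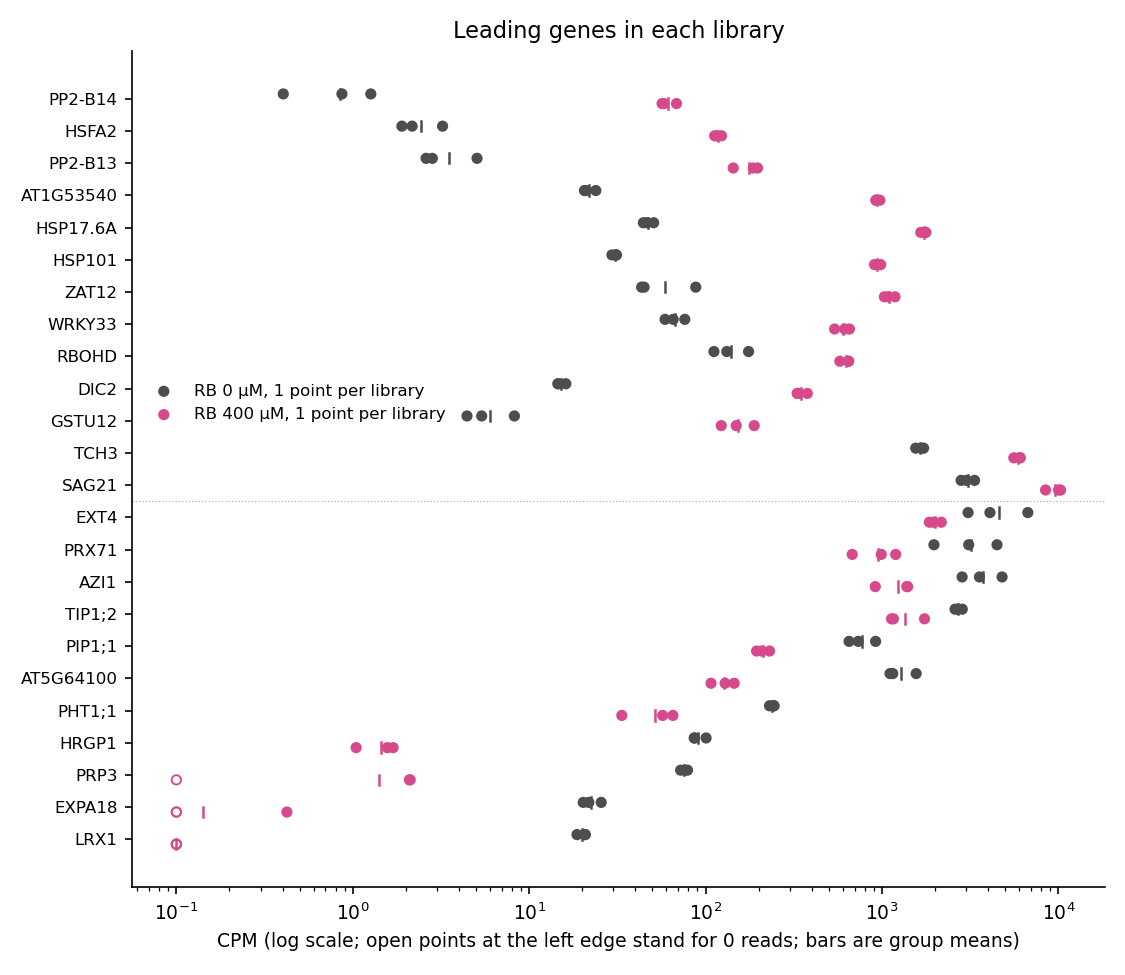
Level of 24 genes in each of the 6 libraries (CPM, log scale), with 1 row per gene, untreated and RB 400 µM libraries in 2 colours, bars at the group means and open points at the left edge for libraries with 0 reads. The upper rows, led by PP2-B14 and HSFA2, have every RB library to the right of every untreated one, and the lower rows, ending with LRX1, have them to the left.

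Among the large rises outside the chaperones was a pair of neighbouring F-box genes, PP2-B13 and PP2-B14, whose family shares a domain with lectins of the phloem and is thought to select proteins for ubiquitination. PP2-B13 stood at 2.83, 5.06 and 2.605 CPM in the untreated libraries and 197, 144 and 187 CPM in RB 400 µM (47.9-fold; log2 fold change 5.58, SE 0.25, adjusted p = 1.65e-11). PP2-B14 stood at 0.404, 1.27 and 0.868 CPM without RB and 68.5, 58.1 and 56.7 CPM with it (65.7-fold; log2 fold change 6.04, SE 0.35, adjusted p = 2.97e-10). Both were barely detected in untreated seedlings, and neither had an RB library near the untreated ones. Of 6 genes of the family 4 rose, PP2-B1 among them by 1.67-fold. AT2G44578, which encodes a RING/U-box protein, rose from 1.48 ± 0.998 to 96.2 ± 16.1 CPM (61.7-fold).

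SAG21, a small protein of the late embryogenesis abundant type that is found in mitochondria, gained more CPM than any other called gene. It stood at 3351, 2811 and 3016 CPM in the untreated libraries and 10293, 8469 and 10035 CPM in RB 400 µM (3.14-fold; log2 fold change 1.65, SE 0.15, adjusted p = 1.16e-07). TCH3, a calmodulin-like calcium sensor first found as a touch-induced gene, came next with 1723, 1554 and 1669 CPM without RB and 6070.5, 5596 and 6074 CPM with it (3.59-fold). In these highly expressed genes the untreated level was already high, and the groups lay well apart. Among the 10 genes that gained most CPM were also the glutathione transferase GSTF8 (from 2049 ± 185 to 5448 ± 303 CPM), HSPRO2 (from 948 ± 33.4 to 2838 ± 161 CPM) and AT1G19020 (from 129 ± 9.99 to 1763 ± 111 CPM). GLB1, a haemoglobin that acts on nitric oxide, and LBD41, a LOB domain transcription factor known from low-oxygen responses, belonged to the same 10, with from 1390.2 ± 238 to 4103 ± 368 CPM and from 1145 ± 169 to 3639.6 ± 183 CPM.

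Zinc finger factors of the ZAT and AZF type, repressors that are known from responses to reactive oxygen, rose in 5 of 9 cases and together went from 798 ± 20.1 to 3767 ± 116 CPM. ZAT12 stood at 44.8, 88.0 and 43.4 CPM in the untreated libraries and 1032, 1186 and 1083 CPM in RB 400 µM (18.5-fold; log2 fold change 4.21, SE 0.23, adjusted p = 1.37e-10). ZAT10 rose from 221 ± 6.04 to 1465 ± 83.7 CPM (6.62-fold) and ZAT6 from 296 ± 32.0 to 918 ± 90.305 CPM (3.10-fold). The RB libraries of all 3 genes lay above the untreated ones. SZF1 and CZF1, a pair of tandem zinc finger proteins of the CCCH type, rose 8.15-fold and 5.38-fold and were the 2 genes called among 11 of that type.

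Of 51 ERF and DREB factors, which carry the DNA-binding domain of the ethylene response, 21 rose. ERF13 stood at 5.25, 6.65 and 3.47 CPM without RB and 175, 186 and 160.4 CPM with it (32.8-fold; log2 fold change 5.04, SE 0.26, adjusted p = 8.98e-11). ERF6, a substrate of stress-activated MAP kinases, rose from 56.9 ± 7.18 to 483 ± 36.3 CPM (8.46-fold), and RRTF1, named for its response to redox changes, from 3.50 ± 1.36 to 62.3 ± 0.82 CPM (17.0-fold). ERF98 rose 34.3-fold, ERF105 9.72-fold and ORA47, an activator of jasmonate synthesis, 25.5-fold. The lower calls in this family depended on the setting, with 3 in the fit of all libraries, 8 with library totals and 1 without RB 0 µM replicate 3.

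WRKY factors, which bind W boxes and act in defence, moved in both directions. In the fit of all libraries 12 of 45 rose and 4 fell, and their median of -0.01 was near that of all genes; without RB 400 µM replicate 3, 7 were called higher. WRKY33, which governs camalexin synthesis, stood at 58.9, 76.3 and 65.6 CPM in the untreated libraries and 615, 539 and 654 CPM in RB 400 µM (8.98-fold; log2 fold change 3.17, SE 0.20, adjusted p = 8.85e-10). WRKY40, a repressor in defence, rose from 48.0 ± 16.4 to 469 ± 42.7 CPM (9.67-fold). In these 2 factors the groups were far apart in all libraries. WRKY65 fell from 161 ± 7.30 to 60.6 ± 14.3 CPM (2.67-fold). Of 18 VQ proteins, small partners of WRKY factors, 8 rose, and SIB1, a VQ protein that binds a plastid sigma factor, rose 6.59-fold.

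Among 45 NAC factors 9 rose and 1 fell. The 4 genes with the smallest p among those that rose, ATAF2 (4.79-fold), ATAF1 (4.04-fold), NAC102 (3.99-fold) and NAC032 (3.49-fold), form 1 branch of the family. ATAF2 went from 191 ± 23.9 to 918 ± 50.8 CPM and ATAF1 from 101 ± 10.3 to 406 ± 25.7 CPM. The gene that fell, NAC1, takes part in auxin signalling for lateral roots (from 35.8 ± 3.62 to 12.6 ± 1.37 CPM, 2.86-fold). MYB51, a regulator of indole glucosinolates, rose 4.76-fold.

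Some genes of calcium and oxygen signalling rose. Of 6 calmodulin-like sensors 3 were called higher, TCH3, CML37 and CAM9, the last by 2.47-fold and not when any 1 untreated library or replicate 2 of RB 400 µM was left out. CML37, a calmodulin-like protein, stood at 6.86, 13.6 and 5.21 CPM without RB and 268, 311 and 304 CPM with it (33.0-fold; log2 fold change 5.04, SE 0.29, adjusted p = 3.35e-10). RBOHD, the NADPH oxidase that makes superoxide outside the cell during immune responses, stood at 132, 175 and 112 CPM in the untreated libraries and 648, 577 and 645 CPM in RB 400 µM (4.45-fold; log2 fold change 2.15, SE 0.21, adjusted p = 3.39e-07). The untreated libraries of RBOHD ranged more widely than those of CML37, yet none reached an RB library. RBOHD was the only 1 of 5 NADPH oxidases in the table that was called. Of 12 calcium-dependent kinases 3 rose, and 1 when replicate 3 of RB 0 µM or replicate 3 of RB 400 µM was left out. CPK28, which acts in immune signalling, rose from 24.7 ± 3.62 to 84.8 ± 5.33 CPM (3.42-fold).

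In the MAP kinase cascade 7 of 34 genes rose (20.6%, beside 9.11% of all genes), and these were kinases that act upstream. MKK4, a kinase of MAP kinases, rose from 41.6 ± 2.85 to 111 ± 10.2 CPM (2.65-fold), and MAPKKK19 and MEKK1, which act a step earlier, rose 4.11-fold and 1.65-fold. MPK16 was the 1 gene called lower (adjusted p = 0.0467), a call lost under each leave-one-out except without RB 0 µM replicate 2. Receptors and ligands of damage signalling moved with them: PEPR1, the receptor of the danger peptide Pep1, rose from 15.5 ± 5.76 to 48.9 ± 4.55 CPM (3.11-fold), and PROPEP1, the precursor of that peptide, from 9.05 ± 0.988 to 34.4 ± 4.39 CPM (3.81-fold). Of 26 lectin receptor kinases 7 rose (26.9%) and 1 fell (3.85%). Of 37 intracellular immune receptors of the nucleotide-binding type 9 rose, and AT1G66090, a short form without leucine-rich repeats, stood at 10.1, 13.3 and 11.3 CPM without RB and 222, 289 and 309 CPM with it (23.4-fold; log2 fold change 4.55, SE 0.27, adjusted p = 4.96e-10).

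Some ubiquitin ligases were called, whereas the subunits of the protease they serve were not. Of 19 PUB ligases 5 rose, PUB23, a regulator of immune signalling, from 44.1 ± 12.9 to 198 ± 3.58 CPM (4.49-fold) and PUB17 1.81-fold. Of 12 ATL ligases 3 rose (25%) and 1 fell (8.33%), beside 9.11% and 6.43% of all genes. ATL31, a membrane-bound RING ligase of the carbon and nitrogen response, rose 5.54-fold, whereas ATL15 fell 3.66-fold. In edgeR's test 0 of 36 subunits of the 26S proteasome were called, 0 had an unadjusted p under 0.05 and 0 were called by DESeq2. Their summed level was 2571, 2439 and 2621 CPM in the untreated libraries and 2545, 2457 and 2501 CPM in RB 400 µM, so that the groups overlapped. Of 18 autophagy genes 0 were called by edgeR or DESeq2, with 3 at an unadjusted p under 0.05. Their median log2 fold change was -0.58 (all genes -0.04), and 16 of the 18 values were negative. The summed level of the autophagy genes was 488, 557 and 611 CPM in the untreated libraries and 445, 406 and 459 CPM in RB 400 µM, with no overlap.

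**Figure D4:**
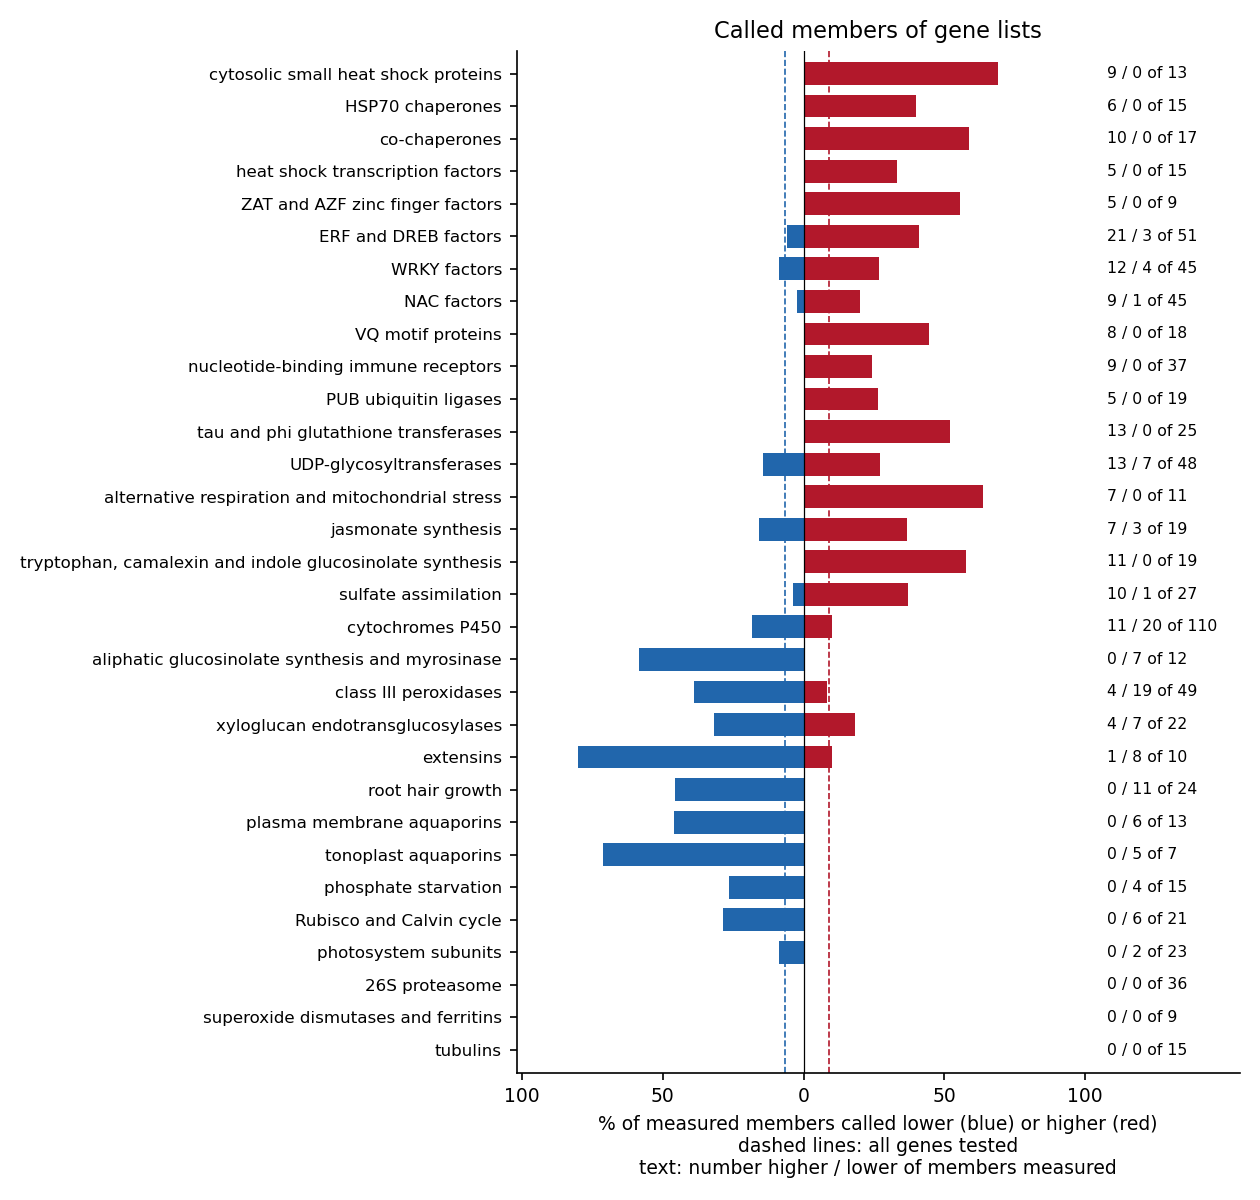
Percent of the measured members of 31 gene lists called higher (to the right) and lower (to the left) in RB 400 µM, with dashed lines at the 9.11% and 6.43% of all tested genes. Among the lists shown, cytosolic small heat shock proteins and alternative respiration reach furthest to the right, and extensins and tonoplast aquaporins furthest to the left. The 31 are a selection from 102 lists. Some short lists not shown have larger shares, such as organelle small heat shock proteins (83.3% higher) and proline-rich proteins (100% lower).

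Conjugating enzymes of detoxification rose in many cases. Of 25 glutathione transferases of the tau and phi classes, which attach glutathione to reactive compounds, 13 rose, with a median log2 fold change of 1.23. GSTU12 stood at 4.44, 5.38 and 8.25 CPM in the untreated libraries and 189, 149 and 122.7 CPM in RB 400 µM (25.6-fold; log2 fold change 4.68, SE 0.30, adjusted p = 1.49e-09). GSTF8 rose 2.66-fold, GSTU10 3.47-fold, GSTU7 2.78-fold and GSTU24 12.9-fold. Summed over the family the level went from 5271 ± 379.6 to 9923 ± 429 CPM. Of 48 UDP-glycosyltransferases 13 rose and 7 fell, the latter 4 without RB 0 µM replicate 3; UGT73B5, known from redox stress, rose from 38.2 ± 2.63 to 252 ± 18.8 CPM (6.57-fold).

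Among 110 cytochrome P450 genes 11 rose and 20 fell (medians -0.40 against -0.04 for all genes). CYP706A2 stood at 7.67, 9.18 and 6.95 CPM without RB and 128, 108.4 and 128 CPM with it (15.1-fold; log2 fold change 3.91, SE 0.18, adjusted p = 2.36e-11). CYP81D8 and CYP81D11, which respond to xenobiotics, rose 7.75-fold and 6.90-fold, while their relative CYP81D5 fell 2.80-fold. The subfamily CYP81D thus held members that rose and members that fell. Of 66 ABC transporters 3 rose (4.55%) and 4 fell (6.06%), shares no larger than the 9.11% and 6.43% of all genes. Only 1 was called lower when replicate 2 or 3 of RB 0 µM or replicate 1 or 2 of RB 400 µM was left out. ABCG40, a carrier that takes up abscisic acid, rose from 2.53 ± 1.13 to 37.9 ± 5.39 CPM (14.3-fold), PEN3, which exports defence compounds, 1.75-fold and ABCB21 1.86-fold. The genes that fell were ABCB14 (2.25-fold), ABCG19 (2.69-fold), ABCB2 (1.93-fold) and ABCB1 (1.57-fold). Of 30 MATE carriers 5 rose, among them EDS5, the salicylate exporter of plastids (from 16.2 ± 1.68 to 55.2 ± 11.2 CPM, 3.40-fold).

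Transcripts of alternative respiration rose in 7 of 11 cases, with a median of 1.76, and their sum went from 199.9 ± 8.21 to 1011 ± 69.7 CPM. DIC2, a dicarboxylate carrier of the inner mitochondrial membrane, stood at 14.5, 16.1 and 14.8 CPM in the untreated libraries and 377, 338 and 331 CPM in RB 400 µM (22.9-fold; log2 fold change 4.52, SE 0.17, adjusted p = 2.05e-12). BCS1, an ATPase of the outer mitochondrial membrane, rose from 4.89 ± 1.27 to 61.4 ± 4.73 CPM (12.2-fold), and UCP5, a relative of DIC2, from 54.0 ± 1.79 to 287 ± 6.13 CPM (5.31-fold). The alternative oxidases AOX1A and AOX1D, which pass electrons to oxygen without pumping protons, rose 2.30-fold and 4.0-fold, and the alternative NADH dehydrogenases NDB2 and NDA2 3.38-fold and 2.16-fold.

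Calls among genes for the removal of superoxide and peroxide are set beside the 9.11% higher and 6.43% lower of all genes. Of 9 superoxide dismutases and ferritins 0 were called by edgeR or DESeq2, and 1 was higher and 1 lower at an unadjusted p under 0.05; without RB 400 µM replicate 3, 1 was called higher. Catalase 2 (AT4G35090) fell from 74.7 ± 9.42 to 41.2 ± 2.85 CPM (1.82-fold). Of 10 ascorbate peroxidases and catalases it was the 1 that fell (10%), and 2 rose (20%). APX1 rose 1.49-fold, a call lost without replicate 2 of RB 0 µM or replicate 3 of RB 400 µM. APX2, the heat-inducible cytosolic form, had 2 reads in the untreated libraries and 52 in the RB libraries (33.4-fold higher, 95% counting interval 8.79 to 283). MDHAR (AT3G09940), which restores ascorbate, rose from 106 ± 21.9 to 396 ± 34.4 CPM (3.74-fold), and PDX1.2, a regulator of the synthesis of vitamin B6, itself a quencher of singlet oxygen, rose from 12.1 ± 2.599 to 49.6 ± 11.4 CPM (4.12-fold). GolS1, which makes galactinol, rose 4.11-fold, and GAD4, which makes the amine GABA, 13.04-fold.

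Enzymes of jasmonate synthesis were called higher in 7 of 19 cases and lower in 3 (5 with library totals). AOC3, an allene oxide cyclase, stood at 33.1, 32.6 and 38.2 CPM without RB and 214, 247 and 221 CPM with it (6.57-fold; log2 fold change 2.72, SE 0.18, adjusted p = 2.44e-09). LOX4 and LOX3, lipoxygenases at the entry of the pathway, rose 10.7-fold and 3.61-fold, and OPR3 and OPCL1, which act in the peroxisome, 2.37-fold and 3.07-fold. Not every lipoxygenase followed: LOX2, also a plastid 13-lipoxygenase, fell from 241 ± 24.4 to 125 ± 28.6 CPM (1.94-fold), and LOX1, which acts on another carbon of the fatty acid, fell 1.61-fold. JAZ5, a repressor of jasmonate responses that is itself induced by the hormone, rose from 10.6 ± 3.99 to 88.7 ± 4.48 CPM (8.20-fold).

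Calls in other, short hormone lists are set beside the 9.11% higher and 6.43% lower of all genes. CBP60G, an activator of salicylate synthesis, rose from 28.0 ± 7.05 to 98.6 ± 15.6 CPM (3.51-fold), and 3 of 12 genes of salicylate signalling were called higher (25%). Of 18 genes of ethylene synthesis and perception 2 rose (11.1%) and 3 fell (16.7%). Only 1 rose without replicate 1 or 3 of RB 0 µM or replicate 3 of RB 400 µM. Only 1 fell without replicate 3 of RB 0 µM or replicate 2 of RB 400 µM. ACO5, which makes ethylene from its precursor ACC, fell from 118 ± 47.2 to 22.3 ± 5.64 CPM (5.29-fold). ACS7, which makes ACC, rose 2.098-fold. Of 17 auxin response factors and PIN auxin carriers 0 were called by edgeR or DESeq2, with 3 at an unadjusted p under 0.05, and 1 was called higher without RB 400 µM replicate 2.

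Genes for tryptophan and indole compounds and genes of aliphatic glucosinolates were called in opposite directions. The first list pools tryptophan, camalexin and indole glucosinolates, so that the indole glucosinolate branch was not followed on its own. Of 19 genes for tryptophan, camalexin and indole glucosinolates 11 rose, and 7, 6 and 7 did so when replicate 1 or 3 of RB 0 µM or replicate 3 of RB 400 µM was left out in turn. PAD3, the P450 of the last step to the antimicrobial camalexin, rose from 46.4 ± 10.1 to 211 ± 58.3 CPM (4.53-fold), TSB1, a tryptophan synthase subunit, 2.36-fold, and CYP79B2, at the entry to indole glucosinolates, 2.11-fold. In contrast 7 of 12 genes of aliphatic glucosinolate synthesis and of myrosinase action fell and 0 rose. CYP83A1, of the core of the aliphatic branch, stood at 165, 163 and 151 CPM in the untreated libraries and 64.8, 53.4 and 58.0 CPM in RB 400 µM (2.72-fold; log2 fold change -1.44, SE 0.14, adjusted p = 2.35e-07). IPMI2, of the chain elongation cycle, fell 3.32-fold and ESM1 1.84-fold. The groups of CYP83A1 did not overlap. The difference between the 2 lists was not itself tested.

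Sulfur is needed by glucosinolates and by glutathione, and genes for its assimilation were called higher while an uptake carrier fell. Of 27 genes 10 rose and 1 fell, although the median of the list was 0.00. APS3, an ATP sulfurylase, rose from 32.7 ± 1.12 to 112 ± 9.44 CPM (3.42-fold), and APR3, an APS reductase, from 38.0 ± 4.27 to 92.7 ± 24.8 CPM (2.44-fold). SERAT2;1, which makes the precursor of cysteine, rose 2.05-fold. The gene that fell was SULTR1;2, the main sulfate uptake carrier of the root, at 12.9, 21.8 and 26.5 CPM without RB and 3.14, 0.524 and 1.69 CPM with it (11.2-fold; log2 fold change -3.48, SE 0.44, adjusted p = 9.76e-06).

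Of 26 metacaspases and regulators of cell death 6 rose (23.1%), BAG6 among them, and 2 fell (7.69%), beside 9.11% and 6.43% of all genes. BAP1 and BAP2, inhibitors of cell death, rose from 69.7 ± 9.13 to 263 ± 4.20 CPM (3.77-fold) and from 4.45 ± 3.00 to 29.1 ± 6.49 CPM (6.21-fold). MC1, a metacaspase that promotes it, rose 1.798-fold, and LOL1, which acts in the same direction, 2.54-fold. The genes that fell were the metacaspase MC9 (1.52-fold) and ACD1 (1.49-fold), which opens the ring of chlorophyll during its breakdown, and neither was called when replicate 2 or 3 of RB 0 µM or replicate 2 of RB 400 µM was left out. CAF1a and CAF1b, which shorten the poly(A) tails of messenger RNA, rose 3.33-fold and 4.71-fold, and RBP47B, an RNA-binding protein of stress granules, from 262 ± 18.7 to 720.1 ± 133 CPM (2.74-fold).

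Large falls were found in structural proteins of the cell wall. Of 10 extensins, rod-like glycoproteins that are cross-linked in the wall, 8 fell, with a median log2 fold change of -4.98, or -4.94 with the genes at 0 reads set to their bound. HRGP1 stood at 86.4, 86.4 and 101 CPM in the untreated libraries and 1.05, 1.57 and 1.69 CPM in RB 400 µM (60.6-fold; log2 fold change -5.92, SE 0.34, adjusted p = 2.71e-10). EXT10 fell 42.1-fold and EXT12 23.7-fold. EXT4, which lost more CPM than any other called gene, stood at 3079, 4096 and 6714 CPM without RB and 1856, 1961 and 2171 CPM with it (2.32-fold; log2 fold change -1.21, SE 0.20, adjusted p = 0.000231). The untreated libraries of EXT4 differed widely among themselves, but the lowest was still above every RB library. LRX3 was called higher by 1.54-fold, a call lost without RB 400 µM replicate 2 (adjusted p = 0.0517).

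Several of these genes are known from root hairs, the outgrowths of root epidermal cells that take up water and nutrients. LRX1, an extensin with leucine-rich repeats that root hairs need, had 20.6, 18.7 and 20.8 CPM in the untreated libraries and no reads in RB 400 µM. With 0 reads in the 3 RB libraries it was at least 41.0-fold lower if the group is set to a floor of 3 counts. EXPA18 and EXPA7, expansins that loosen the wall of growing hairs, had 177 and 135 reads in the untreated libraries and 1 read each in the RB libraries (138-fold lower, 95% counting interval 24.4 to 5477, and 105-fold lower, 95% counting interval 18.6 to 4184). PRP3, a proline-rich protein of root hairs, stood at 72.3, 76.3 and 79.0 CPM in the untreated libraries and 0, 2.095 and 2.12 CPM in RB 400 µM (50.6-fold; log2 fold change -5.66, SE 0.36, adjusted p = 1.00e-09). In each of these genes the untreated libraries agreed closely and the RB libraries had a few reads at most. In all 11 of 24 root hair genes fell, but 7 when replicate 1 or 3 of RB 0 µM or replicate 2 of RB 400 µM was left out, and 7 in DESeq2. Their median log2 fold change of -3.55 came to -1.63 with the 8 genes that had a group at 0 reads set to their bound.

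Of 49 class III peroxidases, secreted enzymes that make or break cross-links in the wall, 19 fell and 4 rose (2 rose when replicate 1 or 2 of RB 0 µM or replicate 1 of RB 400 µM was left out). AT5G64100 stood at 1152, 1112 and 1563 CPM without RB and 145.3, 107 and 129 CPM with it (10.0-fold; log2 fold change -3.32, SE 0.20, adjusted p = 5.43e-10). AT5G17820 fell from 144.6 ± 7.29 to 9.98 ± 1.42 CPM (14.4-fold), and PRX71 (AT5G64120) from 3189 ± 1262 to 955 ± 261 CPM (3.34-fold). AT5G64100, AT5G64110 and AT5G64120 lie side by side in the genome and all 3 fell. AT1G14550, chosen after its values were seen, went the other way (from 1.35 ± 0.821 to 23.2 ± 3.26 CPM, 16.3-fold).

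Other proteins of the wall moved in both directions. Of 39 arabinogalactan proteins 5 rose (12.8%, beside 9.11% of all genes). In the same list 8 fell (20.5%, beside 6.43% of all genes), and 5 fell without RB 0 µM replicate 1. AGP3 fell from 99.5 ± 11.8 to 3.57 ± 0.543 CPM (27.5-fold) while AGP1 rose from 125 ± 10.4 to 518 ± 22.2 CPM (4.14-fold). Of 22 xyloglucan endotransglucosylases, which cut and rejoin the chains between cellulose fibres, 4 rose and 7 fell. XTR6 rose from 143 ± 18.9 to 560.3 ± 56.9 CPM (3.90-fold), and XTH14, its neighbour on the chromosome, fell from 78.8 ± 2.23 to 16.7 ± 3.47 CPM (4.73-fold). AT3G43850, among the largest falls, had 2 reads in the RB libraries and 836 in the untreated ones, where replicate 1 stood apart from the others (182, 54.4 and 92.0 CPM in the untreated libraries and 0, 0.524 and 0.423 CPM in RB 400 µM; 326-fold lower, 95% counting interval 89.9 to 2693).

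Aquaporins, the water channels, were called in 1 direction. Of 13 plasma membrane aquaporins (PIP) 6 fell, with a median of -0.83, and of 7 tonoplast aquaporins (TIP) 5 fell, with a median of -1.01. PIP1;1 stood at 734, 651 and 921 CPM without RB and 231, 208 and 195 CPM with it (3.64-fold; log2 fold change -1.86, SE 0.14, adjusted p = 8.73e-09). PIP2;2 fell 3.01-fold, TIP2;2 3.57-fold and TIP2;3 6.67-fold. TIP1;2 was among the genes that lost most reads, from 2714 ± 129.5 to 1346 ± 344 CPM. The summed level of the PIP genes went from 5166 ± 434 to 3095 ± 164 CPM and that of the TIP genes from 5871 ± 108.2 to 3315 ± 543 CPM, with no overlap between the libraries of the 2 doses.

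Several nutrient uptake genes of the root fell as well. PHT1;1, the main phosphate uptake carrier, stood at 244, 230.4 and 244 CPM in the untreated libraries and 65.3, 33.5 and 57.1 CPM in RB 400 µM (4.59-fold; log2 fold change -2.20, SE 0.23, adjusted p = 8.66e-07). PHT1;4, of the same family, fell 3.68-fold, PHO1, which loads phosphate into the xylem, 2.57-fold, and RNS1, a ribonuclease of phosphate starvation, from 42.6 ± 10.97 to 4.24 ± 1.96 CPM (9.70-fold). These were the 4 genes called among 15 of phosphate starvation. Of 8 genes of iron deficiency 2 fell (25%, beside 6.43% of all genes). HA2, a proton pump of the plasma membrane, fell 2.33-fold. IRT2, an iron carrier of the root epidermis, had 47 reads in the untreated libraries and 1 in the RB libraries (36.6-fold lower, 95% counting interval 6.26 to 1477). Nitrate genes were called in both directions, with 3 higher (20%) and 3 lower (20%) of 15. Only 1 was called lower when replicate 3 of RB 0 µM or replicate 2 of RB 400 µM was left out. NIA2, a nitrate reductase, rose 1.49-fold, and LBD39, a repressor of nitrate responses, fell 2.24-fold.

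Markers of other tissues of the seedling were followed beside the root hair genes. Of the leaf mesophyll markers RBCS2B was called lower, and LHCB1.1 higher with overlapping groups (log2 fold change 0.83, SE 0.24, adjusted p = 0.0238). The call of LHCB1.1 was lost with library totals and without replicate 1 or 2 of RB 0 µM or replicate 2 of RB 400 µM. RBCS1A, RBCS3B, CA1 and RCA, of the same tissue, were not called. EXPA7, EXPA18 and LRX1, which define root hairs, had 1, 1 and 0 reads in RB 400 µM. CASP1, of the endodermis, was called lower (log2 fold change -0.64, SE 0.20, adjusted p = 0.0319), a call lost when replicate 1 or 3 of RB 0 µM or replicate 2 or 3 of RB 400 µM was left out (adjusted p = 0.0989, 0.162, 0.112 and 0.0981), and CASP2 and SCR, of the same tissue, and SHR, of the stele, were not. PHO1, also a stele marker, was called lower (31.5, 27.5 and 37.8 CPM without RB and 13.1, 12.0 and 12.3 CPM with it). SUC2, which loads sugar into the phloem, stood at 174, 197 and 197 CPM in the untreated libraries and 198, 174 and 178 CPM in RB 400 µM. AHA3, also a phloem marker, stood lower in RB 400 µM but was not called (log2 fold change -0.59, SE 0.27). Its values were 60.2, 66.8 and 64.3 CPM without RB and 34.5, 54.5 and 38.1 CPM with it. The groups of AHA3 did not overlap, as in 34.4% of all genes. FAMA, of guard cells, fell (42.8, 39.9 and 47.3 CPM without RB and 23.5, 24.6 and 20.3 CPM with it), whereas TGG1, also of guard cells, was not called and its groups overlapped (75.9, 88.6 and 62.5 CPM in the untreated libraries and 46.5, 98.5 and 54.6 CPM in RB 400 µM), and the epidermal markers ATML1, PDF1 and FDH were not called. MYB60, KAT1 and COW1 and the seed and pollen markers were looked up and not found among the genes tested. The part of cell number in the falls of root genes was not tested.

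Genes of photosynthesis were called in both directions, with shares that differed between lists. Over all genes 9.11% were called higher and 6.43% lower. The lower share was 28.6% for Rubisco and the Calvin cycle, 19% for light-harvesting proteins and 20% for plastid singlet oxygen signalling. The lists were not matched for level, and the first 2 summed to 41489 and 26102 CPM without RB over 21 genes each. Over all genes the lower share was 12.5% between 100 and 1000 CPM and 13.2% above 1000 CPM. It was 8.7% for photosystem subunits, 4.35% for tetrapyrrole synthesis and 1.56% for plastid-encoded genes. Of 21 genes of Rubisco and the Calvin cycle 6 fell, each by less than 2-fold. RBCS1B, a small subunit of Rubisco, stood at 2268, 2161 and 1798 CPM without RB and 1248, 1098 and 1013 CPM with it (1.85-fold; log2 fold change -0.89, SE 0.14, adjusted p = 0.000178), and RBCS2B and PRK, phosphoribulokinase, fell 1.68-fold and 1.704-fold. RBCS1A, of the same family, was not called, at 17522, 17940.3 and 17878 CPM in the untreated libraries and 15533, 16799 and 13744 CPM in RB 400 µM. Of 23 photosystem subunits 2 fell, PSAD-1 (1.39-fold) and PSAD-2 (1.45-fold), and with library totals 9 did. Light-harvesting proteins moved in both directions with 2 higher and 4 lower of 21, and 7 lower without the 3 libraries that stood apart, replicate 1 of 10 and of 100 µM and replicate 2 of 400 µM. LHCB2.3 rose 2.42-fold and LHCB2.1 fell 1.65-fold. ELIP1, an early light-induced protein, rose 2.31-fold and was the 1 gene called of 6. Among 23 genes of tetrapyrrole synthesis, HEMA2, which acts at the entry of the pathway, had 1 read in the untreated libraries and 18 in the RB libraries (23.1-fold higher, 95% counting interval 3.65 to 963), and CAO (AT2G47450), in the list by its symbol but annotated as part of the chloroplast signal recognition particle, fell 1.54-fold (6 genes fell with library totals). Of 64 plastid-encoded genes 5 were called higher and 1 lower. Among them ATCG00820 rose 2.33-fold and ATCG00740 1.86-fold, while ATCG00260 had 1877 of its RB reads in replicate 3 and was not called without that library. The lower call of ATCG00940 was lost in DESeq2 and without replicate 2 of RB 0 µM or any 1 RB 400 µM library. Of 15 genes of plastid singlet oxygen signalling SIB1 rose and 3 fell, GUN1, which relays plastid signals to the nucleus, by 1.69-fold, and the plastid proteases FTSH8 and FTSH1 by 2.05-fold and 1.696-fold; GUN1 alone was called lower when replicate 2 or 3 of RB 0 µM or replicate 1 or 3 of RB 400 µM was left out. Members of the RBCS and LHCB families are near copies of each other, so that single values are less certain.

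Most genes of the translation and cytoskeletal machinery were not called. Of 130 cytosolic ribosomal proteins 6 were called higher in the fit of all libraries, and 1 without RB 0 µM replicate 2 or replicate 3, and 2 without any 1 of the RB 400 µM libraries. Their median was 0.16. Of 28 translation initiation factors 0 were called by edgeR or DESeq2, with 3 at an unadjusted p under 0.05. Of 15 tubulins 0 were called by either tool, with 1 at an unadjusted p under 0.05, and their sum was 2285, 2330.1 and 2319 CPM in the untreated libraries and 2416, 2422 and 2365 CPM in RB 400 µM. The sums in RB 400 µM were slightly above the untreated ones, and the median of the list, 0.05, became -0.06 with library totals. Of 6 actins 0 were called by either tool and 0 had an unadjusted p under 0.05; 1 was called lower with the 6 libraries alone and 2 without the 3 libraries that stood apart. The median of the actins was -0.36 against -0.04 for all genes, and their summed level was 153, 222 and 171 CPM in the untreated libraries and 90.9, 215 and 99.0 CPM in RB 400 µM, with overlap.

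Some of the largest rises lay just behind another gene that rose. AT1G09433, annotated as an RNA with no protein, had 0 reads in the untreated libraries and 27.7, 22.5 and 16.9 CPM in the RB libraries (at least 58.2-fold higher). It lies on the same strand as HSP101 and starts 886 bases beyond its end. Of the 15 largest rises, 6 lay within 1500 bases downstream, on the same strand, of a stronger gene that was called higher, and 0 of the 15 largest falls lay so. This held for 209 of 13214 tested genes with a position in the reference (1.6%). The share was 3.1% among genes called higher and 9.6% among those called at least 8-fold higher. Beside AT1G09433, the 6 were AT1G04047 behind ATAF1 (at least 40.6-fold higher, 247 bases away), AT1G19025 overlapping AT1G19020 by 32 bases (at least 42.4-fold higher), RABA2b, a small GTPase, behind AT1G07400 (246 bases), AT2G32130 behind AT2G32140 (101 bases) and AT5G10710 behind AT5G10695 (734 bases). Whether these reads come from transcripts of the gene in front was not tested. DALL1, a lipase with no such neighbour, had 0 reads in the untreated libraries and 20.9, 7.86 and 14.8 CPM in the RB libraries (at least 38.5-fold higher).

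Genes that moved had fewer exons. Of all tested genes with a gene model in the reference 14.9% had a single exon, against 25.8% of those called higher and 27.6% of those called lower. Among genes that rose at least 8-fold the share was 42.2%, and among those that fell at least 8-fold 29.8%. The median number of exons was 4 over all tested genes and 2 in both of these sets.

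**Figure D5:**
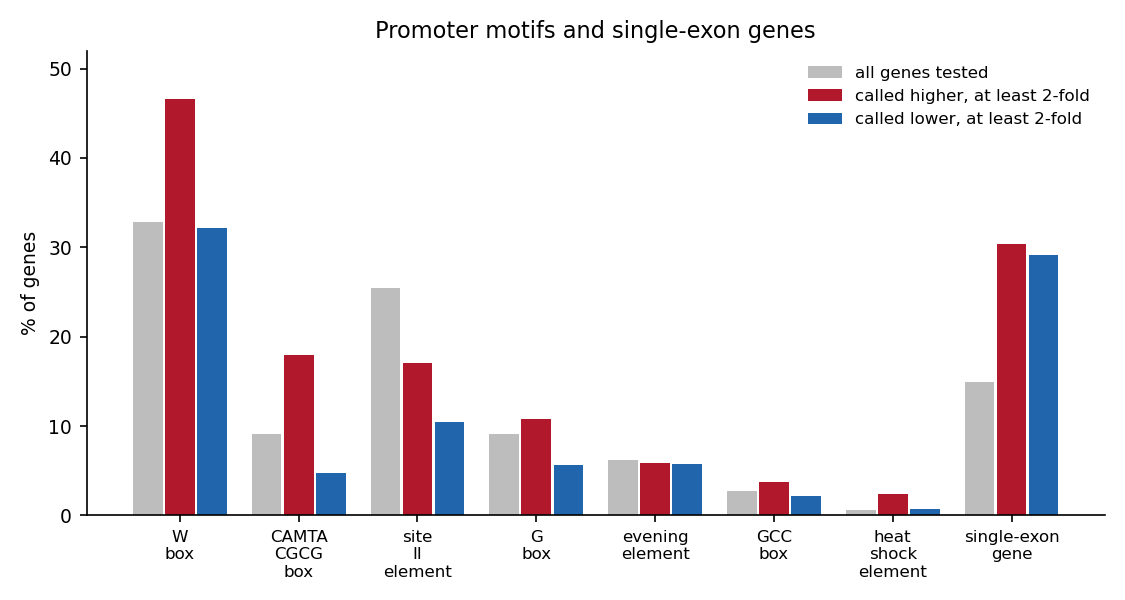
Percent of genes (vertical axis, from 0) with each searched promoter motif and with a single exon, for all tested genes, genes called at least 2-fold higher and genes called at least 2-fold lower. W boxes (32.8, 46.6 and 32.2%), CAMTA boxes (9.1, 18.0 and 4.7%), site II elements (25.4, 17.1 and 10.5%) and single-exon genes (14.9, 30.4 and 29.1%) have the widest spread of shares.

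Promoter windows of the same length were searched for 7 motifs. The W box, searched as TTGACC or TTGACT on either strand, was present in 32.8% of all tested promoters, in 46.6% of those of genes that rose at least 2-fold and in 32.2% of those that fell at least 2-fold. The CGCG box of CAMTA factors, which bind calmodulin, was searched as CGCG preceded by A, C or G and followed by C, G or T, and was present in 9.1, 18.0 and 4.7%. The site II element (TGGGCC or TGGGCT), known from genes of growing cells, was present in 25.4, 17.1 and 10.5%. The heat shock element was in 0.6, 2.4 and 0.7%, the GCC box (GCCGCC) in 2.7, 3.7 and 2.2%, the G box (CACGTG) in 9.1, 10.8 and 5.6% and the evening element (AAATATCT) in 6.2, 5.9 and 5.8%. Over the promoters of all 37897 reference genes the W box was present in 31.4%, the CGCG box in 7.7% and the site II element in 19.3%. Motifs were counted apart from each other, so that those that overlap count for both. These shares are a description, with no test.

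The W boxes of PP2-B13 (chr1:21057578-21057707, minus strand) and SAG21 (chr4:1047106-1047185, minus strand), which rose, and of PRX71 (chr5:25661008-25661197, minus strand), which fell, are shown in capitals to set a promoter that fell beside 2 that rose. A box on the other strand reads GGTCAA or AGTCAA, and each sequence again ends 1 base before the start.
PP2-B13: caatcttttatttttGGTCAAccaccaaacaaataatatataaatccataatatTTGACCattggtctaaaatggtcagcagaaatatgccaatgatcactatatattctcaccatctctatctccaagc
SAG21: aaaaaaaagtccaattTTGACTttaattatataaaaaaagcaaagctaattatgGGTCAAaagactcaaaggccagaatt
PRX71: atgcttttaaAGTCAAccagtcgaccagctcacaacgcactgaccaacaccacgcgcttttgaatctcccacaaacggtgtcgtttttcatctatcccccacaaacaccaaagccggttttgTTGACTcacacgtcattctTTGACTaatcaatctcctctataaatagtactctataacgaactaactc

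PP2-B13 and SAG21 hold 2 boxes each in these windows and PRX71 holds 3, so that the letters are found in genes of either direction.

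At the lower doses the median change of these genes was smaller, though not in every list or gene. The 1212 genes called higher at 400 µM had a median log2 fold change of 0.54 at 10 µM, 1.12 at 100 µM and 1.29 at 400 µM, and the 856 genes called lower -0.45, -0.73 and -1.04. The 3 comparisons share the untreated libraries, and the genes were chosen at 400 µM, so that these values are set side by side with no test. For the cytosolic small heat shock proteins the median was 3.52, 4.04 and 3.83 at the 3 doses, and for the plasma membrane aquaporins -0.24, -0.39 and -0.83. HSFA2 had log2 fold changes of 4.94, 5.65 and 5.58, ZAT12 of 2.77, 4.06 and 4.21 and HRGP1 of -3.05, -4.69 and -5.92.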

How the data were processed

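RNA was measured in 12 libraries of seedlings, 3 per dose of RB, and the 6 of 0 and 400 µM are compared. MARS-seq libraries of total RNA were run on a NextSeq 500, and the authors used cutadapt (1.8.3 in the submitters' processing notes, beside bcl2fastq 2.17.1.14) for trimming, STAR for mapping to Araport 11, and HTSeq-count for the reads of each gene. The counting strand is not given in the sources used here, so reads of overlapping genes on opposite strands may not be told apart. The deposited counts are raw, and molecular identifiers were not used to remove duplicates. The deposited normalized signal (counts divided by a size factor per library) and the deposited regularized log2 values were not used. No column of another sample was in the table.

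Tests on the counts used edgeR 4.0.16 under R 4.3.3 (TMM factors, glmQLFit and glmQLFTest, two-sided, Benjamini-Hochberg adjustment over 13307 genes) and with DESeq2 1.42.0 as an alternative. All 12 libraries entered 1 fit and so shared an estimate of spread. Genes needed 5 reads in at least 1 library, which removed none. The SE of a log2 fold change was taken as its size over the root of F. For a group with 0 reads the floor was 3 counts per group, and with 1 to 3 reads the ratio has an exact 95% counting interval. The tests were tried on simulated counts. Depths of 2002066 to 2999463 reads per library limit what can be called below 10 CPM.

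The comparison and the 102 gene lists were chosen with earlier results of these data known. Lists were built from gene symbols and product names of TAIR10.1 in RefSeq, where 13214 of 13307 identifiers (99.3%) matched; that assembly also gave promoters, exons and neighbours. Genes were named by rule: the 15 largest rises and falls among called genes with at least 10 CPM and no overlap, the 10 that gained and the 10 that lost most CPM, called genes with 0 reads in a group and at least 10 CPM in the other, and up to 6 members per list with the smallest p. HSP18.2, ORA47, MPK16, CYP81D5, NDA2, LOX2, LRX3, AT1G14550, MC9, ACD1 and ABCB1, like the tissue markers CASP1 and FAMA, were named after their values were seen. Alternatives were DESeq2's size factors, library totals, a filter of 1 CPM in 3 libraries, a fit of the 6 libraries alone, a replicate block, each library left out in turn, leaving out 3 libraries together, DESeq2's Wald test and a minimum fold of 2.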

Additional observations from a re-analysis of the deposited data

How the results depend on the processing

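No call among the named genes changed direction under any alternative. The counts of genes called higher and lower were 1237 and 847 with DESeq2's size factors, 1030 and 1183 with library totals, 1224 and 854 with a filter of 1 CPM in 3 libraries, 1502 and 1165 with the 6 libraries alone, and 1128 and 754 with DESeq2's Wald test, where 527 genes had no adjusted p. Leaving out 1 library gave 942 to 1067 and 602 to 672. A minimum change of 2-fold left 796 and 448, and these genes held 4.49% and 14.6% (higher) and 5.46% and 1.796% (lower) of the reads in RB 0 µM and RB 400 µM; leaving out 1 library moved the shares of all called genes to 11.2 to 11.6% and 24.6 to 25.3% (higher) and 15.3 to 16.2% and 7.72 to 7.80% (lower). Of the genes in the lists, 340 were called higher and 195 lower, 281 to 305 and 143 to 163 without 1 library, and 112 lower at 2-fold or more. Of 419 called genes among those named, 327 kept the call in every alternative, as did the 50 named by size or by 0 reads. With the replicate block 1173 and 816 genes were called, of which 1146 and 792 also were without it. The deviations of libraries with the same number correlated at 0.154, 0.129 and 0.068, and every library correlated best with its own number, which is a hint from the data only, so the numbers were not taken to pair the samples. Depth limits the calls of genes below 10 CPM, and with 3 libraries per dose the loss of any 1 removes calls.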
